A study of Rattus norvegicus with 19 samples.

Results

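The genes described here are Igf1, which encodes insulin-like growth factor 1, and the receptor genes Igf1r and Insr, followed across the brains of 19 female Wistar rats. They are 3 of the 32883 Ensembl gene IDs in the deposited count table, chosen by ID: ENSRNOG00000004517 for Igf1, ENSRNOG00000014187 for Igf1r and ENSRNOG00000029986 for Insr. The symbols come with that choice. The count table holds IDs alone, and the RefSeq gene table used here lists all 3 symbols but gives an Ensembl ID in 0 rows, so the pairing could not be checked against an annotation.

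The rats were offspring of fathers in 4 groups, and each rat itself was on chow. There were 5 daughters of control fathers, 4 of fathers given a high-fat diet (HFD), 5 of fathers with early life stress (ELS, separation from the mother in the series text) and 5 of fathers with both (ELS-HFD). The labels give brain and whole tissue lysate, and the series text names the amygdala and male rats; the labels' sex was followed. All rats had been tested on an elevated plus maze at postnatal day 57 ± 1. RNA was enriched for polyadenylated molecules, and values are CPM, a library's counts scaled to a total of 1000000, so fewer cells expressing a gene and less RNA per cell cannot be told apart. Levels were not set against each other between genes, because the values are not per transcript length.

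Insulin and IGF1 act on cells through related receptor tyrosine kinases, Insr and Igf1r. Each receptor, once bound by its ligand, phosphorylates itself and insulin receptor substrate proteins, which feed the PI3K-Akt and Ras-MAPK pathways. In the brain this signalling is known for roles in neuron survival, synaptic plasticity and the sensing of metabolic state. Igf1 in brain is made by microglia and some neurons, and the peptide also enters from the blood. When insulin signalling is low, FOXO transcription factors move to the nucleus, and the insulin receptor gene is one of their known targets.

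The promoter stretches of the 3 genes are shown as a description. A relation between their letters and the levels of the genes across the libraries was not tested. RefSeq's table for the GRCr8 build, which is not the build of the counts, held all 3. The 30 bases just before each gene's start in that table read, 5′ to 3′ on the gene's strand, as follows.
Igf1, chr7:24172502-24172531, plus strand: tcacttcggcctcataatacccactctgac
Igf1r, chr1:130959967-130959996, plus strand: acgtgtgcgcggccccgagagcgcgcgcgt
Insr, chr12:6128804-6128833, minus strand: tccctctgtctcagactccacacaacgcga

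Over the 250 bases before the start, 79.6% were G or C for Igf1r, 71.2% for Insr and 46.8% for Igf1, against a median of 51.2% over 33469 promoters. The Igf1r window held 45 CpG dinucleotides, the Insr window 24 and the Igf1 window 3, and the median window held 5. The receptor genes thus had CpG-rich windows, and the growth factor gene did not. On both strands 4 motifs were searched: the FOXO core GTAAACA, the GC box GGGCGG, the TATA motif TATAAA and the CREB core TGACG. They matched at 1 place each for FOXO in Insr, GC box in Igf1r and CREB core in Insr, with 0 matches elsewhere in these windows and no overlap between the 2 matches in Insr. The FOXO core was present in 3.21% of all windows, the GC box in 30.5%, the TATA motif in 12.9% and the CREB core in 18.2%. These matches are descriptions of the letters, and binding was not measured. The stretches with the FOXO core of Insr (read on the reverse strand, in capitals) and the GC box of Igf1r (in capitals) are:
Insr, chr12:6128885-6128914, minus strand: acgggccgcgtTGTTTACtggccggagtcg
Igf1r, chr1:130959801-130959830, plus strand: tggaggcgcgggGGGCGGtgcctcctgggc

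Library totals ran from 7034837 to 20266594 counts, and all 3 genes passed the filter on low counts that kept 15372 IDs. A group of 3 libraries stood apart from the other 16: HFD replicate 1, ELS-HFD replicate 2 and ELS-HFD replicate 3. In them the 10 most abundant IDs took 25.83%, 14.81% and 16.74% of the counts, against 9.0% to 13.86% in the others, a share called the top-10 share here. On the first principal component of all IDs they lay at 113.69, 49.23 and 47.82, and the others between -29.02 and 10.59. The labels give no litter, father or batch, so animals may be related within a group, and p-values reflect no more than the variation among these rats.

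The paternal diet was compared first, by averaging HFD against control and ELS-HFD against ELS. Both receptor genes were lower on average in daughters of fathers on the diet, and Igf1 was slightly higher, but none of the 3 passed the test across all IDs. The log2 fold change was -0.49 ± 0.20 (SE) for Insr, -0.66 ± 0.28 (SE) for Igf1r and 0.20 ± 0.15 (SE) for Igf1. By edgeR's quasi-likelihood test with Benjamini-Hochberg adjustment, the adjusted p was 0.167, 0.176 and 0.38, in that order, and the unadjusted p was 0.0243, 0.0296 and 0.183. This contrast called 0 of 15372 IDs (0%) by edgeR and 0 by limma voom with quality weights. DESeq2 was run for all contrasts without that filter on low counts, but with its own default filtering by mean count before adjustment. For paternal diet it called 282 IDs, none of them a member, and 23219 IDs had an unadjusted p. At an unadjusted p under 0.05 edgeR had 3739 IDs, 24.3% of those tested, and 10.2% were both under it and lower, as the 2 receptor genes were. Such values for Insr and Igf1r were thus common among all IDs. The median log2 fold change of all IDs was -0.002, and 7.48% of IDs lay as low as Insr or lower, 3.39% as low as Igf1r or lower.

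Insr encodes the insulin receptor. In control libraries 1 to 5 it was at 50.9, 58.3, 38.6, 50.1 and 37.5 CPM, and in HFD libraries 1 to 4 at 8.58, 46.5, 39.1 and 40.2 CPM. The HFD group overlapped the controls except in replicate 1, which lay far below every other library. In ELS libraries 1 to 5 Insr was at 64.5, 43.9, 54.8, 55.5 and 56.3 CPM, and in ELS-HFD libraries 1 to 5 at 37.7, 24.3, 25.1, 52.8 and 42.0 CPM. ELS-HFD replicates 2 and 3 were the lowest of these, while replicate 4 lay inside the ELS range. Group means were 47.1 ± 8.84 (SD, n = 5) for control, 33.6 ± 17.0 (SD, n = 4) for HFD, 55.0 ± 7.34 (SD, n = 5) for ELS and 36.4 ± 12 CPM (SD, n = 5) for ELS-HFD. From the highest, the order was ELS, control, ELS-HFD and HFD, and the mean ± SD ranges of neighbours in it overlapped.

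Igf1r encodes the IGF1 receptor, which binds IGF1 with high affinity. In control libraries 1 to 5 it was at 11.4, 16.1, 9.75, 13.3 and 7.66 CPM, and in HFD libraries 1 to 4 at 0.851, 12, 8.75 and 9.41 CPM. The value of HFD replicate 1 rests on 12 counts, with an exact Poisson 95% interval of 0.44 to 1.49 CPM that covers counting error only, and lies under all other libraries. In ELS libraries 1 to 5 Igf1r was at 11.9, 11.0, 17.6, 16.4 and 16.8 CPM, and in ELS-HFD libraries 1 to 5 at 7.53, 5.26, 5.69, 11.9 and 11.7 CPM. ELS-HFD replicates 4 and 5 reached the lower end of the ELS range, and the other 3 lay below it. Group means were 11.7 ± 3.24 (SD, n = 5) for control, 7.75 ± 4.81 (SD, n = 4) for HFD, 14.7 ± 3.01 (SD, n = 5) for ELS and 8.43 ± 3.22 CPM (SD, n = 5) for ELS-HFD. The order of groups was that of Insr, again with overlapping mean ± SD ranges between neighbours.

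Igf1, the growth factor, differed less between the groups. It was at 3.8, 4.78, 5.51, 5.2 and 6.37 CPM in control libraries 1 to 5 and at 6.38, 5.31, 5.28 and 6.44 CPM in HFD libraries 1 to 4. ELS libraries 1 to 5 held 5.46, 5.37, 7.04, 4.66 and 4.60 CPM, and ELS-HFD libraries 1 to 5 held 3.84, 5.54, 5.28, 7.51 and 6.08 CPM. All 4 ranges overlapped, and none of the 3 libraries that stood apart was low. On the TMM scale HFD replicate 1 was the highest of all, at 8.27 CPM. Means were 5.13 ± 0.946 (SD, n = 5) for control, 5.85 ± 0.646 (SD, n = 4) for HFD, 5.43 ± 0.985 (SD, n = 5) for ELS and 5.65 ± 1.33 CPM (SD, n = 5) for ELS-HFD. Its 39 to 102 counts per library limit the precision: the exact Poisson 95% interval of ELS-HFD replicate 2, at 5.54 CPM, was 3.94 to 7.58 CPM. The 95% confidence interval of its log2 fold change with paternal diet, -0.11 to 0.51, leaves room for differences in either direction.

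**Figure D1:**
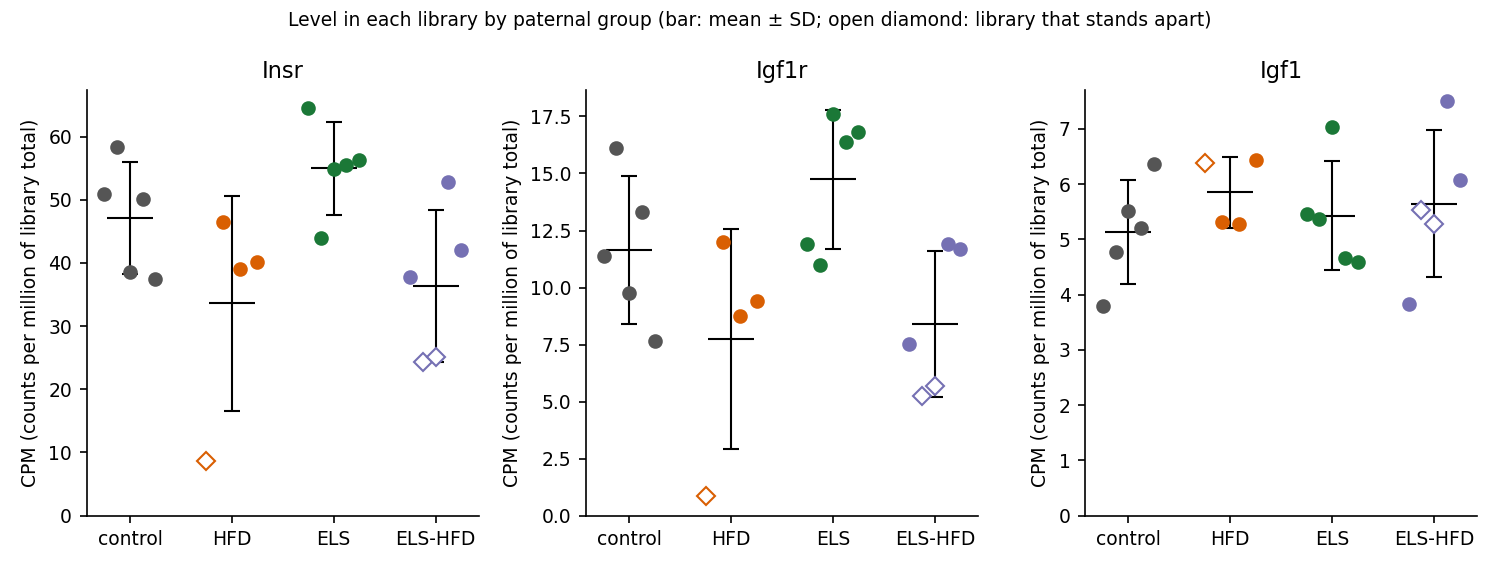
CPM of Insr, Igf1r and Igf1 in each of the 19 libraries (vertical axis, linear from 0) by paternal group, with the mean ± SD as black bars and the 3 libraries that stand apart as open diamonds. HFD replicate 1 is the lowest library for Insr (8.58 CPM) and Igf1r (0.851 CPM), while its Igf1 level of 6.38 CPM is among the upper values.

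The spread over all 19 libraries differed between the receptors and the growth factor. Igf1r ran from 0.851 to 17.6 CPM, a 20.6-fold range, Insr from 8.58 to 64.5 CPM, a 7.52-fold range, and Igf1 from 3.8 to 7.51 CPM, a 1.98-fold range. Without the 3 libraries that stood apart Igf1r spanned 7.53 to 17.6 CPM and Insr 37.5 to 64.5 CPM, and the coefficient of variation was 26.5% for Igf1r, 17.7% for Insr and 19.1% for Igf1. On the TMM-scaled log2 CPM scale, Igf1r in HFD replicate 1 deviated by -3.16 from its median over the 19 libraries, a deviation that 0.768% of IDs equalled or exceeded downward in that library. For Insr the deviation there was -1.95, with 6.52% of IDs as low or lower. Igf1 deviated by 0.61 in the same library, in the other direction.

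The diet comparison was repeated without a count model, by exact permutation of the diet label within each kind of early life, two-sided, on log2(CPM + 1). The mean difference was -0.66 for Insr (exact permutation p = 0.00403) and -0.80 for Igf1r (exact permutation p = 0.00617), and 0.10 for Igf1 (exact permutation p = 0.325). Altogether 24 such tests were made on the 3 genes and 3 ratios over all 19 libraries, and each was repeated without the 3 libraries that stood apart. The averaged diet comparison was also repeated with 1 library left out at a time and with other scalings or pseudocounts. None of these p-values is adjusted. The permutation test was not run on other IDs, so no share of all IDs can be set beside its p-values. Without the 3 libraries that stood apart, the differences were -0.23 for Insr (exact permutation p = 0.0635) and -0.32 for Igf1r (exact permutation p = 0.0759). In edgeR, leaving out the same libraries gave log2 fold changes of -0.21 for Insr (adjusted p = 0.504) and -0.33 for Igf1r (adjusted p = 0.497). All 3 libraries left out came from fathers on the diet and were the lowest for both receptor genes. Leaving them out was therefore bound to bring these differences nearer to 0. With 1 surrogate variable in the edgeR model of all 19 libraries, the log2 fold changes of Insr and Igf1r were -0.023 and -0.030 (adjusted p = 0.982 and 0.99). Whether the surrogate variable itself differed with the diet was not tested.

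**Figure D2:**
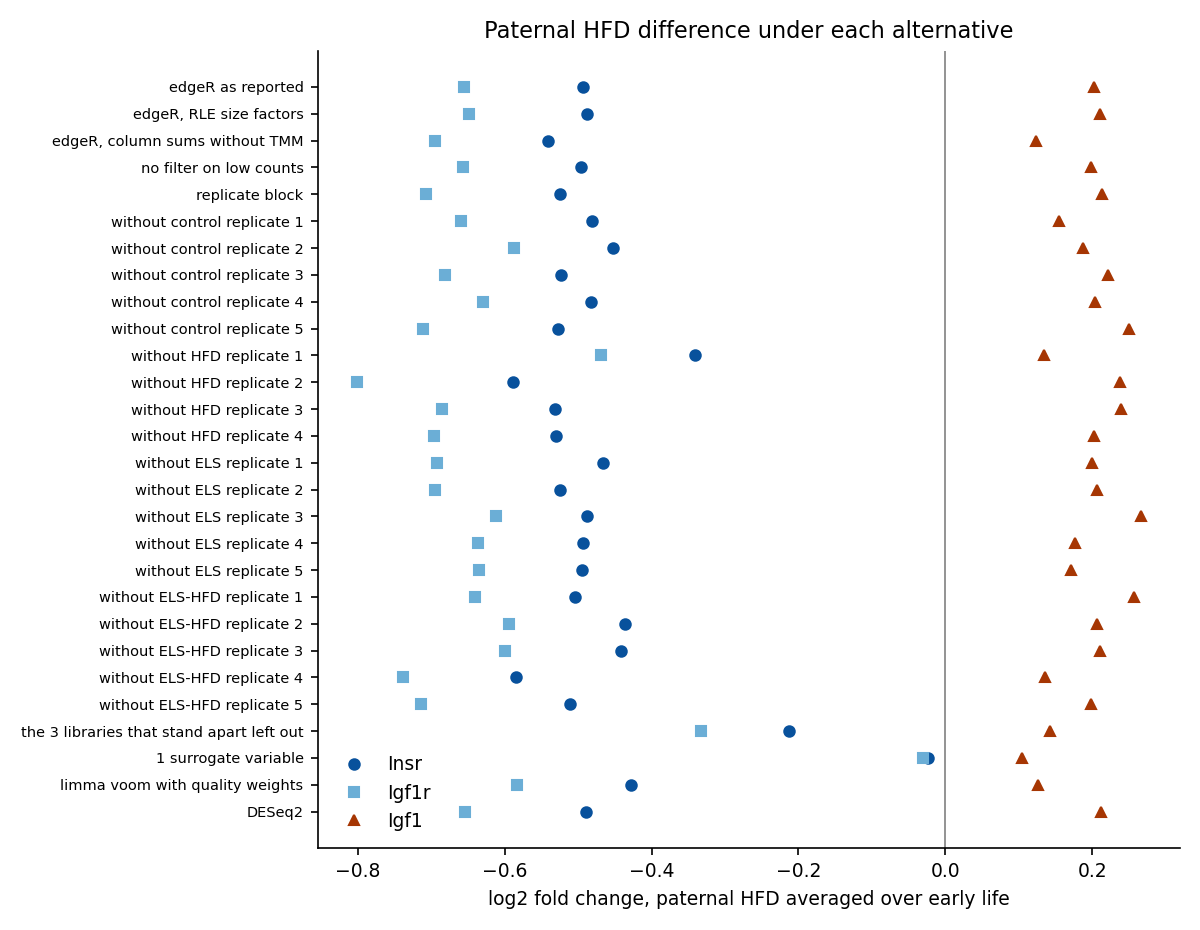
Log2 fold change for paternal HFD averaged over early life (horizontal axis) of Insr, Igf1r and Igf1 under the reported edgeR fit and each alternative (vertical axis). Insr and Igf1r stay below 0 and Igf1 above 0 in all settings shown, and the receptor values come nearest to 0 with 1 surrogate variable (-0.023 and -0.030).

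The top-10 share moved with both receptor genes, also among the 16 other libraries. Over those 16, Insr correlated with it at Pearson's r = -0.686 (permutation p = 0.00312, adjusted p = 0.00468) and Spearman's rho = -0.759 (permutation p = 0.00086, adjusted p = 0.00129). For Igf1r the values were r = -0.826 (permutation p = 7e-05, adjusted p = 0.00021) and rho = -0.788 (permutation p = 0.00046, adjusted p = 0.00129). For Igf1 they were r = -0.014 (permutation p = 0.959) and rho = 0.032 (permutation p = 0.908). Without the 2 libraries farthest from the median share, r was -0.643 for Insr and -0.775 for Igf1r. With group means removed it was -0.501 (permutation p = 0.0472, adjusted p = 0.0708) and -0.748 (permutation p = 0.00086, adjusted p = 0.00258). The permutation after removing group means made no allowance for the means removed, so its p-values are somewhat too low. These 3 relations were chosen after seeing the data. The share itself ran from 12.55% to 25.83% in HFD, 10.67% to 16.74% in ELS-HFD, 10.89% to 12.60% in control and 9.0% to 11.93% in ELS libraries. Its part in the diet difference of the receptor genes was not tested.

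**Figure D3:**
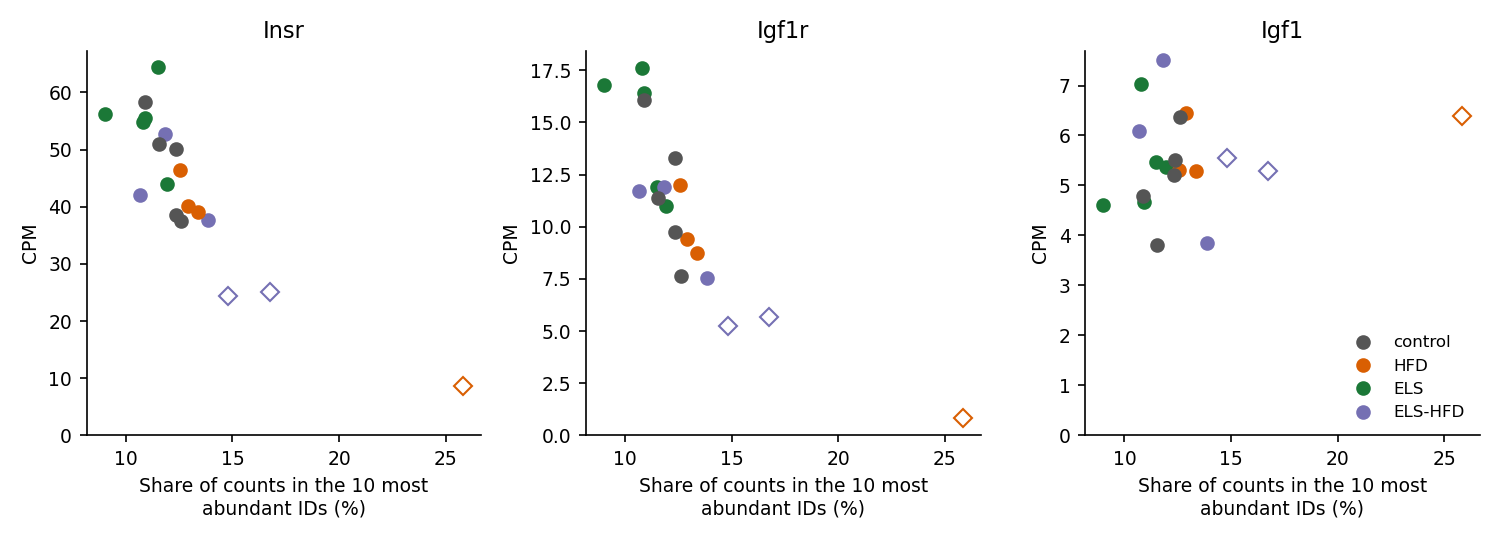
CPM of Insr, Igf1r and Igf1 (vertical axes, linear from 0) against the percentage of a library's counts in its 10 most abundant IDs (horizontal axis), 1 point per library coloured by paternal group, open diamonds for the 3 libraries that stand apart. Both receptor genes are lower where the share is higher, down to HFD replicate 1 at 25.83%, whereas Igf1 shows no such slope (r = -0.014 over the 16 other libraries).

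HFD against control asks about the diet in fathers without early life stress. The log2 fold change was -0.43 ± 0.29 (SE) for Insr, -0.55 ± 0.41 (SE) for Igf1r and 0.31 ± 0.21 (SE) for Igf1, with edgeR adjusted p of 0.673, 0.692 and 0.675. In this contrast edgeR called 0% of IDs, with 1198 (7.79%) at an unadjusted p under 0.05, while limma voom called 0 and DESeq2 called 4. The receptor values depended on HFD replicate 1. Without it they were -0.143 for Insr and -0.187 for Igf1r, and that of Igf1 was 0.16.

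ELS-HFD against ELS asks the same in fathers with early life stress. Here the log2 fold change was -0.55 ± 0.28 (SE) for Insr, -0.77 ± 0.38 (SE) for Igf1r and 0.09 ± 0.20 (SE) for Igf1, with edgeR adjusted p of 0.263, 0.261 and 0.803. This contrast called 0% of IDs by edgeR, though 3039 (19.8%) were at an unadjusted p under 0.05, and 2405 by limma voom with quality weights and 140 by DESeq2. Both receptor genes passed where HFD replicate 1, which is outside this contrast but adds to the shared spread, was left out. Their log2 fold changes were then -0.54 for Insr (edgeR adjusted p = 0.0442) and -0.75 for Igf1r (edgeR adjusted p = 0.0375), with 2405 IDs called in all. They also passed in limma voom with quality weights, at -0.64 (adjusted p = 0.0325) and -0.87 (adjusted p = 0.0444). That setting called 2405 of 15372 IDs, 1459 of them lower, as the receptor genes were. In both settings passing was thus shared with many other IDs and was not particular to the receptor genes. In an edgeR fit to the ELS and ELS-HFD libraries alone they did not, at -0.55 (adjusted p = 0.104) and -0.77 (adjusted p = 0.0844), with 0 IDs called and 4132 at an unadjusted p under 0.05. Without all 3 libraries that stood apart they did not either, at -0.28 (edgeR adjusted p = 0.316) and -0.48 (edgeR adjusted p = 0.272). Over all alternatives the adjusted p ran from 0.0325 to 0.771 for Insr and from 0.0375 to 0.872 for Igf1r. With 1 surrogate variable the sign turned, to 0.107 for Insr and 0.193 for Igf1r.

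Whether the diet difference depended on the father's early life was asked by the interaction. It was -0.12 ± 0.40 (SE) for Insr, -0.22 ± 0.55 (SE) for Igf1r and -0.22 ± 0.29 (SE) for Igf1 on the log2 scale, each with an edgeR adjusted p of 1. For this contrast edgeR called 0% of IDs, with 788 (5.13%) at an unadjusted p under 0.05, while limma voom called 0 and DESeq2 called 4. The 95% confidence intervals were wide, from -0.96 to 0.72 for Insr, from -1.38 to 0.94 for Igf1r and from -0.84 to 0.40 for Igf1. They leave room for an interaction in either direction, and the power to detect one was not computed.

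**Figure D4:**
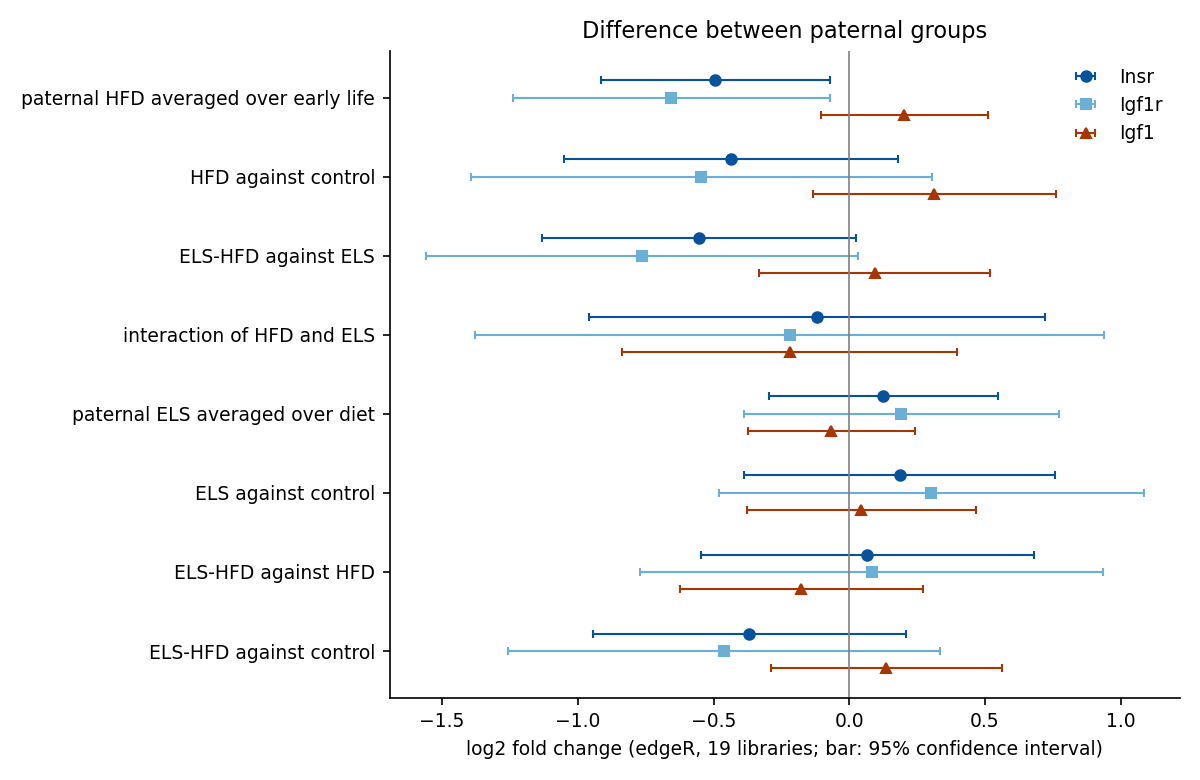
Log2 fold change (horizontal axis) with its 95% confidence interval from edgeR for Insr, Igf1r and Igf1 in the 8 contrasts (vertical axis). Only the intervals of Insr and Igf1r for paternal HFD averaged over early life (-0.92 to -0.07 and -1.24 to -0.07) lie wholly on the lower side of 0.

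Ratios of the counts within a library were compared because they do not depend on how libraries are scaled. The log2 ratio of Igf1 to Igf1r counts was -1.59, -1.75, -0.82, -1.36 and -0.27 in control libraries 1 to 5 and 2.91, -1.18, -0.73 and -0.55 in HFD libraries 1 to 4. It was -1.13, -1.04, -1.32, -1.81 and -1.86 in ELS libraries 1 to 5 and -0.97, 0.08, -0.11, -0.67 and -0.95 in ELS-HFD libraries 1 to 5. All 5 ELS-HFD libraries lay above all 5 ELS libraries, whereas HFD and control overlapped except for HFD replicate 1. How often ratios of Igf1 to other IDs separate ELS-HFD from ELS was not counted. Between those groups 19.8% of all IDs had an unadjusted edgeR p under 0.05. The difference in the log2 ratio was 0.91 between ELS-HFD and ELS (exact permutation p = 0.00794 over 252 splits, the lowest possible) and 1.27 between HFD and control (exact permutation p = 0.143). Without the libraries that stood apart they were 0.57 (exact permutation p = 0.0536) and 0.34 (exact permutation p = 0.411). Averaged over early life it was 1.09 (exact permutation p = 0.00463), and 0.46 (exact permutation p = 0.0641) without the 3 libraries that stood apart.

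For Igf1 to Insr the averaged difference was 0.81 (exact permutation p = 0.00728), and 0.35 (exact permutation p = 0.089) without those libraries. Group means of this log2 ratio were -3.20 ± 0.51 (SD, n = 5) in control, -2.27 ± 1.25 (SD, n = 4) in HFD, -3.35 ± 0.32 (SD, n = 5) in ELS and -2.66 ± 0.47 (SD, n = 5) in ELS-HFD libraries. The receptor genes kept close to each other. Their log2 ratio, Igf1r to Insr, was -2.04 ± 0.18 (SD, n = 5) in control, -2.39 ± 0.64 (SD, n = 4) in HFD, -1.92 ± 0.32 (SD, n = 5) in ELS and -2.13 ± 0.18 (SD, n = 5) in ELS-HFD libraries. With the diet it differed by -0.28 (exact permutation p = 0.0803), and by -0.11 (exact permutation p = 0.375) without the 3 libraries. HFD replicate 1, at -3.33, was the lowest library for this ratio.

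Across libraries, the receptor genes went together, and no relation with the growth factor was detected. Since 3 libraries stood apart, no correlation over all 19 was used as a result. Over the other 16, Igf1r and Insr on the log2(CPM + 1) scale had Pearson's r = 0.827 (permutation p = 0.00013, adjusted p = 0.00039 over 3 relations) and Spearman's rho = 0.835 (permutation p = 0.00019, adjusted p = 0.00057). Without the 2 libraries farthest from the median of Igf1r, r was 0.757 (permutation p = 0.00224). With group means removed it was 0.735 (permutation p = 0.00139, somewhat too low because the means removed were not allowed for). Igf1 had r = 0.018 with Igf1r (permutation p = 0.947) and r = -0.054 with Insr (permutation p = 0.84), with rho of -0.068 (permutation p = 0.805) and -0.176 (permutation p = 0.512). Library totals and composition are shared by the values of a library, and both receptor genes also moved with the top-10 share given above.

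**Figure D5:**
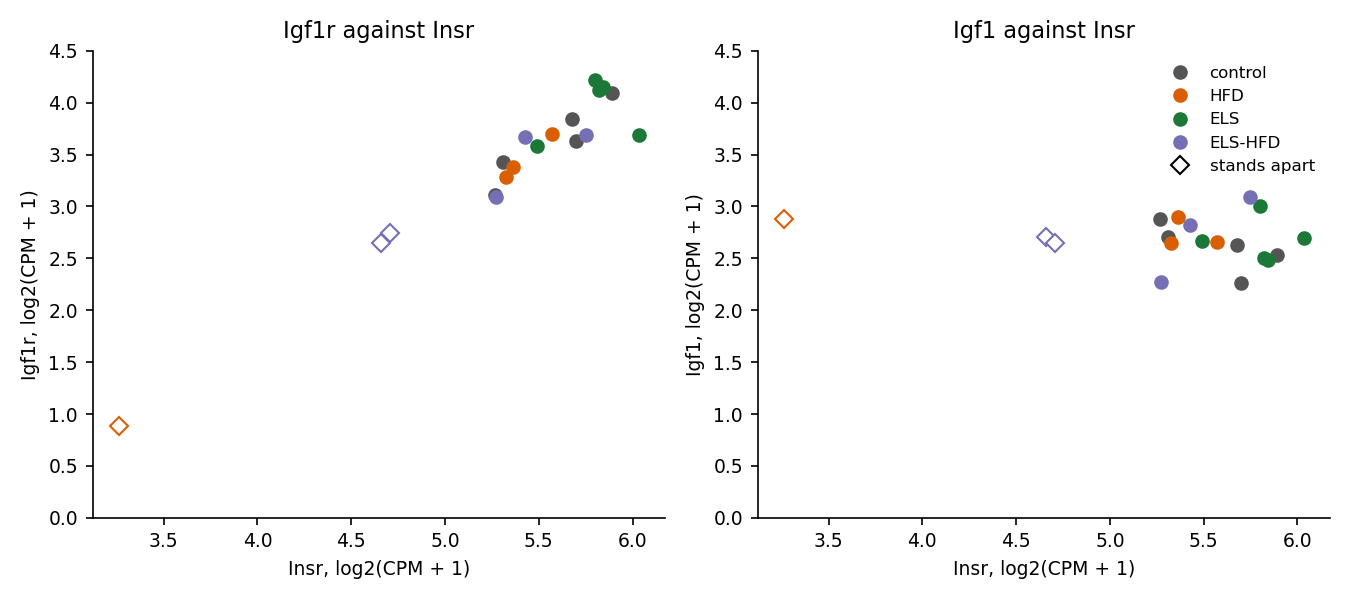
Igf1r (left) and Igf1 (right) against Insr, each as log2(CPM + 1), 1 point per library coloured by paternal group, with open diamonds for the 3 libraries that stand apart. Igf1r rises with Insr among the 16 filled points (r = 0.827), and Igf1 shows no slope (r = -0.054).

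The IDs most like each gene were sought among 11502 IDs with a mean of at least 5 CPM, by Pearson's r of TMM-scaled log2 CPM over the 19 libraries, as a description. For Insr it was ENSRNOG00000007975 (r = 0.986), and 1042 IDs had r over 0.9 with Insr. Igf1r was number 125 in the list of Insr (r = 0.964). For Igf1r it was ENSRNOG00000005165 (r = 0.975), with 729 IDs over 0.9, and Insr was number 10 in its list (r = 0.964). For Igf1 it was ENSRNOG00000008837 (r = 0.801), and 0 IDs had r over 0.9. These counts rested on the 3 libraries that stood apart: over the other 16, an alternative chosen after seeing the data, 5 IDs had r over 0.9 with Insr, 1 with Igf1r and 0 with Igf1. The 3 named IDs then had r = 0.894 with Insr, r = 0.852 with Igf1r and r = 0.73 with Igf1.

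Paternal early life stress, averaged over diet, gave smaller differences. The log2 fold change was 0.13 ± 0.20 (SE) for Insr, 0.19 ± 0.28 (SE) for Igf1r and -0.07 ± 0.15 (SE) for Igf1, each with an edgeR adjusted p of 0.995. For this contrast edgeR called 0% of IDs, with 382 (2.49%) at an unadjusted p under 0.05, while limma voom called 0 and DESeq2 called 1. The 95% confidence intervals were -0.30 to 0.55 for Insr, -0.39 to 0.77 for Igf1r and -0.37 to 0.24 for Igf1. ELS against control gave 0.18 ± 0.27 (SE) for Insr, 0.30 ± 0.37 (SE) for Igf1r and 0.04 ± 0.20 (SE) for Igf1, with edgeR adjusted p from 0.917 to 0.968. ELS-HFD against HFD gave 0.07 ± 0.29 (SE), 0.08 ± 0.41 (SE) and -0.18 ± 0.21 (SE) in the same order, each with an edgeR adjusted p of 1. ELS-HFD against control gave -0.37 ± 0.28 (SE), -0.46 ± 0.38 (SE) and 0.14 ± 0.20 (SE), with edgeR adjusted p of 0.839, 0.839 and 0.888. In these 3 contrasts edgeR called 0% of IDs, with 668 (4.35%), 519 (3.38%) and 643 (4.18%) at an unadjusted p under 0.05, while limma voom called 0 in each and DESeq2 called 0, 3 and 0. The contrasts share groups and are not independent of each other.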

How the data were processed

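The authors deposited 1 table of read counts, as whole numbers, for each Ensembl gene ID for 19 libraries (0 columns left unused), with no normalization, as the values show. Rnor_6.0 and DESeq2 are named in the submitters' processing notes; the aligner, annotation release and strand setting were not given in the sources used here. About 400 ng of RNA was used per library, per the labels' protocols. From the counts, CPM was computed with column sums. The main test was edgeR 4.0.16 (R 4.3.3, quasi-likelihood F test, filterByExpr, TMM, 1 fit over 4 groups, 8 contrasts), with p adjusted over 15372 IDs and called under 0.05. The SE is the log2 fold change divided by the square root of F. Permutation tests and correlations (100000 resamples) used log2(CPM + 1). Alternatives were DESeq2 1.42.0, limma 3.58.1, other scalings, no filter, 1 surrogate variable (sva 3.50.0), a replicate block and leaving out libraries. The procedure was tested on simulated data with independent counts and no libraries that stood apart, so this test does not cover such libraries. The members, lists and tests were chosen with earlier results of these data known. Named IDs are the 3 members and, for each, the most alike ID; since 0 IDs could be paired with a symbol by the reference, the lists of other insulin pathway genes and of cell type markers were not tested, and the labelled tissue was not checked against markers. Promoter sequences are RefSeq's, build GRCr8.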

Additional observations from a re-analysis of the deposited data

Results flagged for a closer look

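Of 28 groups of values (3 genes, 3 ratios and the top-10 share in 4 paternal groups), in 5 a single library lay far from its group, where chance alone would mark about 1 in 20, and the measures are not independent. All 5 were HFD replicate 1. On the log2(CPM + 1) scale it was at 0.89 for Igf1r, against 3.28 to 3.70 in the other HFD libraries, and at 3.26 for Insr, against 5.33 to 5.57. Its log2 ratio of Igf1r to Insr counts was -3.33, against -2.16 to -1.95, and that of Igf1 to Igf1r was 2.91, against -1.18 to -0.55. Its top-10 share was 25.83%, against 12.55% to 13.36%. For the 6 measures of genes and ratios, the exact permutation test of the interaction gave 0 values of p under 0.05.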

How the results depend on the processing

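Of 663 values of the 24 fold changes under alternatives, 631 kept their direction and side of the threshold. Another 28 turned sign and 4 came to pass the threshold, and the cause was not tested. The tally is not a measure of robustness. Leaving out a library outside a contrast of 2 groups leaves its fold change nearly as it was. For Insr, HFD against control stayed at -0.435 without ELS replicate 1. A value can also shrink and still be kept. Paternal HFD for Insr went from -0.494 to -0.023 with 1 surrogate variable. With 1 surrogate variable, ELS-HFD against ELS was -0.018 for Igf1, 0.193 for Igf1r and 0.107 for Insr, the interaction 0.447 for Igf1r and 0.259 for Insr, ELS against control -0.072 and -0.085, and ELS-HFD against control 0.121 and 0.022. With limma voom and quality weights, ELS-HFD against ELS was -0.871 for Igf1r and -0.635 for Insr and passed, paternal ELS was -0.030 and -0.063, and ELS-HFD against HFD -0.316 and -0.269. For Igf1, paternal ELS was 0.017 with column sums and 0.029 without the 3 libraries that stood apart, and ELS-HFD against HFD 0.011 without those. Leaving out 1 library at a time gave, for ELS-HFD against ELS, -0.042 to 0.219 for Igf1, -0.933 to -0.644 for Igf1r and -0.735 to -0.440 for Insr. In the same way the interaction ran from -0.563 to 0.075 for Igf1r and from -0.396 to 0.074 for Insr (above 0 without HFD replicate 2). Paternal ELS ran from -0.133 to 0.021 for Igf1 and from -0.011 to 0.220 for Insr (sign turned without HFD replicate 1), ELS against control from -0.082 to 0.138 for Igf1, and ELS-HFD against HFD from -0.258 to 0.376 for Igf1r and from -0.209 to 0.257 for Insr. The permutation differences with paternal diet that passed an unadjusted 0.05 did not pass without the 3 libraries that stood apart, at -0.318 for Igf1r, -0.23 for Insr, 0.455 for Igf1 to Igf1r and 0.346 for Igf1 to Insr. Those 3 libraries were all from fathers on the diet and were the lowest for both receptor genes. The Igf1r to Insr difference ran from -0.354 to -0.123 when 1 library was left out, and passed without HFD replicate 2, ELS replicate 1 or ELS-HFD replicate 5. The number of IDs called by edgeR was 0 in all 8 contrasts. DESeq2 called 282 for paternal HFD, 4 for HFD against control, 140 for ELS-HFD against ELS, 4 for the interaction, 1 for paternal ELS and 3 for ELS-HFD against HFD. limma voom with quality weights called 2405 for ELS-HFD against ELS, a fit to 2 groups alone called 3 for HFD against control, and 1 surrogate variable gave 1 for ELS-HFD against ELS and 2 for ELS against control. Leaving out 1 library gave 0 to 2 for paternal HFD (2 without HFD replicate 2), 0 to 2405 for ELS-HFD against ELS (2405 without HFD replicate 1), 0 to 12 for the interaction (12 without ELS replicate 5) and 0 to 1 for paternal ELS (1 without ELS replicate 1).

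Replicate numbers did not pair the samples: deviations from group means of same-numbered libraries correlated from -0.436 to 0.57 over 27 pairs, and 6 of 19 libraries correlated best with their own number. With the replicate block, paternal HFD was -0.525 for Insr, -0.708 for Igf1r and 0.213 for Igf1 (edgeR adjusted p = 0.207, 0.205 and 0.421), and 0 IDs were called in each contrast. Low counts limit Igf1r and Igf1 most, with lowest counts of 12 and 39 in a library, against 121 for Insr. The 12 and 121 counts are both of HFD replicate 1, whose total of 14102138 counts was close to the median total of 14027828.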
